A study of Solanum lycopersicum with 9 samples.

Results

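Xyloglucan, xylan and cellulose are polysaccharides that form the load-bearing network of the plant cell wall. The 4 genes described here encode enzymes that act on these polysaccharides or an inhibitor of such enzymes. They are LOC543515 (synonym LEXYL2, a beta-xylosidase, Entrez gene 543515), XTH1 (synonym LeXTH1, a xyloglucan endotransglucosylase/hydrolase, Entrez gene 544272), CELLULASE (an endoglucanase, Entrez gene 543999) and Xegip (an inhibitor of xyloglucan-specific endoglucanases, Entrez gene 543853). They were taken by gene symbol from the platform annotation, which gave each of them 1 probe set, so they are 4 of the 802 named genes of the array, and 4 of its 10038 probe sets. The set was proposed with earlier results of these arrays in view, and LOC543515 was selected on its higher level in silenced than in wild-type pools, so their differences between silenced and wild-type fruit are given as a description, with no p-value. Where the fit over all probe sets called one of them, that is counted beside the share of all probe sets called and nothing is read from it.

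Mesocarp of red ripe tomato fruit (Solanum lycopersicum, cultivar Money Maker) was profiled on 9 Affymetrix arrays, 1 per pool of fruit. Levels are the deposited log2 values. Line AS17 and line AS5 are 2 transgenic lines in which an antisense construct silenced Asr1, a gene named for abscisic acid, stress and ripening, and wild-type (WT) plants served as the control. All plants grew in a greenhouse at 80% relative humidity under a day of 16 light and 8 dark hours. There were 3 pools of fruit in each of AS17, AS5 and WT, and per the labels the pools of a line came from different plants. The labels used here do not name the promoter of the construct, and 0 named probe sets stood for a gene of the ASR family, so the silencing itself was not checked on these arrays. In pooled tissue, fewer cells of a type and less RNA per cell cannot be told apart.

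In the wall of a growing or ripening fruit, xyloglucan coats and tethers cellulose microfibrils. XTH enzymes cut xyloglucan chains and can rejoin them to other chains, endoglucanases cut chains of the glucan type, and beta-xylosidases release xylose from the ends of xylan fragments. XEGIP-type proteins, described from tomato cells, bind and inhibit fungal enzymes that attack xyloglucan. Wall disassembly by such enzymes, together with expansins and pectin-degrading enzymes, accompanies fruit softening.

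2 pools stood apart from the rest. AS17 pool 1 and AS5 pool 3 scored 35.0 and 33.4 on the first principal component over all probe sets (40.1% of the variance), and the other 7 arrays scored from -27.2 to 12.5. For the gapdh control, whose 3′ minus 5′ log2 signal reports on RNA quality, these 2 arrays gave 0.550 and 0.619 and the other 7 gave 0.830 or above. The ubiquitin control gave 1.36 and 1.12 on them and 1.41 or above on the other 7. The actin control did not set both apart, at 1.08 in AS17 pool 1 and 0.481 in AS5 pool 3, against 0.733 to 1.10 on the other 7. All 10 ripe fruit marker genes with a probe set, among them PG2 for polygalacturonase and E8, were above background on all 9 arrays, and the only seed marker with a probe set, MAN2, was at background on all of them. Of 6 leaf and green tissue markers, 5 were above background on all arrays, with a summed linear level of 273 to 465 in AS17, 231 to 535 in AS5 and 435 to 770 in WT. Differences of the 4 genes from WT are given with and without the 2 pools, and so are the differences stated for other genes where leaving the pools out moved the value by over 1.5 times, turned its sign or changed a call.

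LOC543515 was the 1 gene of the 4 that stood higher in every silenced pool by more than the spread of the WT pools while also being above background throughout. Its log2 level was 4.59, 4.46 and 4.70 in AS17 pools 1, 2 and 3 and 4.13, 4.63 and 4.62 in AS5 pools 1, 2 and 3, against 3.59, 3.66 and 3.60 in WT pools 1, 2 and 3. The lowest silenced pool, AS5 pool 1, lay 0.47 above the highest WT pool, and neither of the 2 pools that stood apart was the highest. The level averaged 4.58 ± 0.12 in AS17 and 4.46 ± 0.29 in AS5, against 3.62 ± 0.04 in WT (SD, n = 3 each).

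The log2 difference of LOC543515 from WT was 0.96 (SE 0.15) in AS17 and 0.84 (SE 0.15) in AS5, or 1.95-fold and 1.79-fold on the linear scale. Without AS17 pool 1 and AS5 pool 3 it was 0.96 (SE 0.17) in AS17 and 0.76 (SE 0.17) in AS5. At an adjusted p under 0.05 in limma it was the 1 gene of the 4 called for both lines averaged minus WT, where 1.28% of all probe sets were called and 0.389% were called higher. It was also the 1 called in AS17 minus WT, where 1.34% of all probe sets were called, and 0 of the 4 genes were called in AS5 minus WT, where 0.379% were. Because those contrasts chose the gene, nothing is read from these counts. LOC543515 was not called for the mean of both lines when WT pool 1, 2 or 3 was left out, although its difference stayed between 0.86 and 0.99 over the 9 fits with 1 array left out. In AS17 minus WT it was not called without AS17 pool 1 or 3 or without WT pool 1, 2 or 3, with differences of 0.90 to 1.02 over the same fits, nor with a variance trend or with the pool number as a block. In AS5 minus WT it was called when AS5 pool 1 was left out, with a difference of 1.01, and with array weights.

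**Figure D1:**
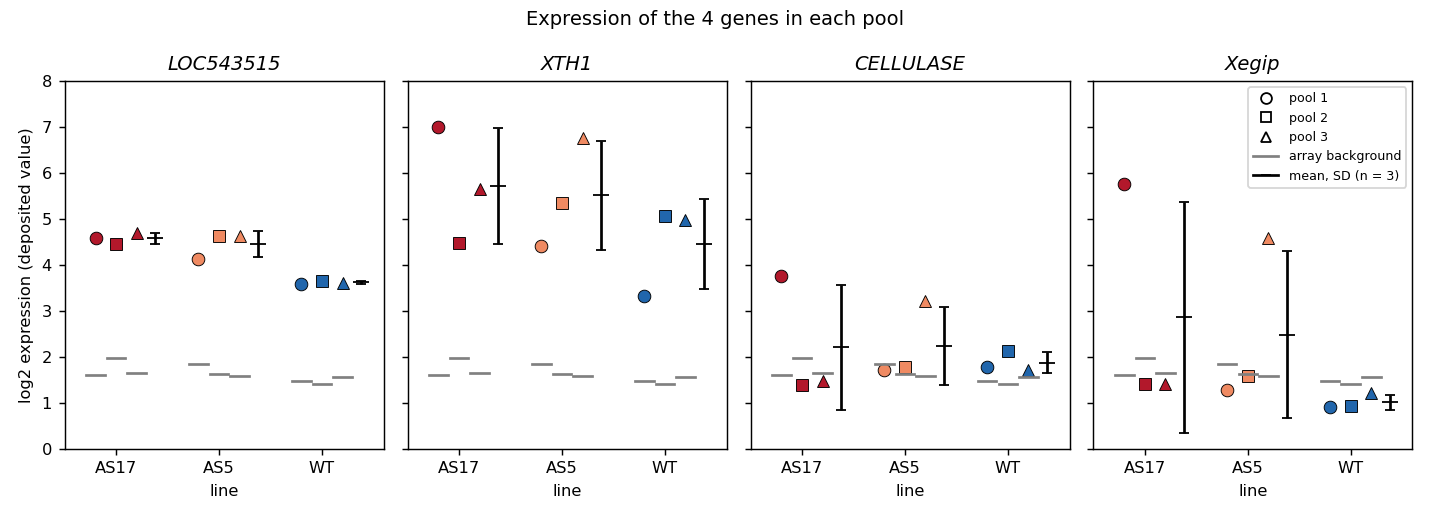
Deposited log2 expression of LOC543515, XTH1, CELLULASE and Xegip in the 3 pools of AS17, AS5 and WT. Symbols mark pools, grey bars the background level of that pool's array, and black bars the mean and SD of each group (n = 3). LOC543515 lies at 4.13 or above in every silenced pool and at 3.66 or below in WT, while the other genes are highest in AS17 pool 1 and AS5 pool 3.

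XTH1 varied widely among pools of the same line, and its groups overlapped. Its log2 level was 7.01, 4.48 and 5.66 in AS17 pools 1, 2 and 3 and 4.42, 5.35 and 6.77 in AS5 pools 1, 2 and 3, against 3.33, 5.06 and 4.98 in WT pools 1, 2 and 3. The 2 highest values belonged to AS17 pool 1 and AS5 pool 3, 1.11 above the next highest pool, and the lowest belonged to WT pool 1. AS17 pool 2 and AS5 pool 1 lay below WT pools 2 and 3. The level averaged 5.72 ± 1.27 in AS17 and 5.51 ± 1.18 in AS5, against 4.46 ± 0.97 in WT (SD, n = 3 each), so each difference from WT was about as wide as the SD of its groups.

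The log2 difference of XTH1 from WT was 1.26 in AS17 and 1.06 in AS5 (SE 0.78 each). Without AS17 pool 1 and AS5 pool 3 it was 0.61 in AS17 and 0.43 in AS5 (SE 0.60 each). For the mean of both lines it was 1.16 (SE 0.67) on all arrays and 0.60 without WT pool 1. XTH1 was above background on all 9 arrays.

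CELLULASE lay close to background in most pools. Its log2 level was 3.77, 1.38 and 1.47 in AS17 pools 1, 2 and 3 and 1.72, 1.78 and 3.21 in AS5 pools 1, 2 and 3, against 1.78, 2.14 and 1.71 in WT pools 1, 2 and 3. It was at or below the array's background level in AS17 pools 2 and 3 and AS5 pool 1 and above it in the other 6 arrays, including all 3 of WT. This rests partly on the background level, which was higher in silenced arrays than in WT. AS5 pool 1 at 1.72 lay under its background of 1.84, while WT pool 3 at 1.71 lay above its background of 1.56. AS17 pool 1 and AS5 pool 3 exceeded the other 7 pools by at least 1.08, and the remaining silenced pools overlapped WT or lay below it.

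The sign of the CELLULASE difference turned on those 2 pools. On all arrays the log2 difference from WT was 0.33 in AS17 and 0.36 in AS5 (SE 0.63 each), and without AS17 pool 1 and AS5 pool 3 it was -0.45 and -0.12 (SE 0.15 each). For the mean of both lines it was 0.35 (SE 0.55) with all arrays, 0.10 without AS5 pool 3, -0.04 without AS17 pool 1 and -0.29 (SE 0.12) without both. Several of these values lie at background, so the differences are those of the deposited values and not exact folds.

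Xegip was above background in 2 of 9 arrays, AS17 pool 1 and AS5 pool 3. Its log2 level was 5.76, 1.41 and 1.41 in AS17 pools 1, 2 and 3 and 1.28, 1.59 and 4.58 in AS5 pools 1, 2 and 3, against 0.91, 0.92 and 1.20 in WT pools 1, 2 and 3. All 3 WT pools, and the other 4 silenced pools, were at or below background, where values have no order. Set against WT with values under background raised to it, Xegip was at least 19.3-fold higher in AS17 pool 1 and at least 8.53-fold higher in AS5 pool 3. As group means set against WT in that way, it was 2.58-fold higher in AS17 and 2.00-fold higher in AS5. These are not lower bounds, since only 1 of 3 pools in each line was above background and the others entered at their deposited values. The measured log2 difference for the mean of both lines was 1.66 (SE 1.05) on all arrays, 0.93 without AS17 pool 1, 1.13 without AS5 pool 3 and 0.41 (SE 0.12) without both, where every array was at background.

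2 of the 4 genes, LOC543515 and Xegip, had all 6 silenced pools above all 3 WT pools, as did 4.73% of all probe sets. For Xegip this held by 0.08 and among values at background, so no level is read from it. 3 of the 4 genes, XTH1, CELLULASE and Xegip, had their 2 highest values in AS17 pool 1 and AS5 pool 3, as did 11.3% of all probe sets. The genes were chosen with earlier results of these arrays in view, so nothing is read from either count. TPRP-F1 and SUT2 stood on the list of vascular markers. Their summed linear level was 56.2 in AS17 pool 1 and 50.4 in AS5 pool 3. In the other 7 arrays it was 34.9 to 48.3. TPRP-F1 ran from 0.99 to 4.24 log2 and was above background on 7 arrays, while SUT2 stayed at 4.92 to 5.23. The sum thus followed mostly 1 gene, TPRP-F1, and is not read as an amount of vascular tissue. The summed level of 3 epidermis markers was highest in AS5 pool 3 (120) but stood at 32.0 in AS17 pool 1. The part of these markers and of the 3′ minus 5′ signal in the levels of XTH1, CELLULASE and Xegip was not tested.

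**Figure D2:**
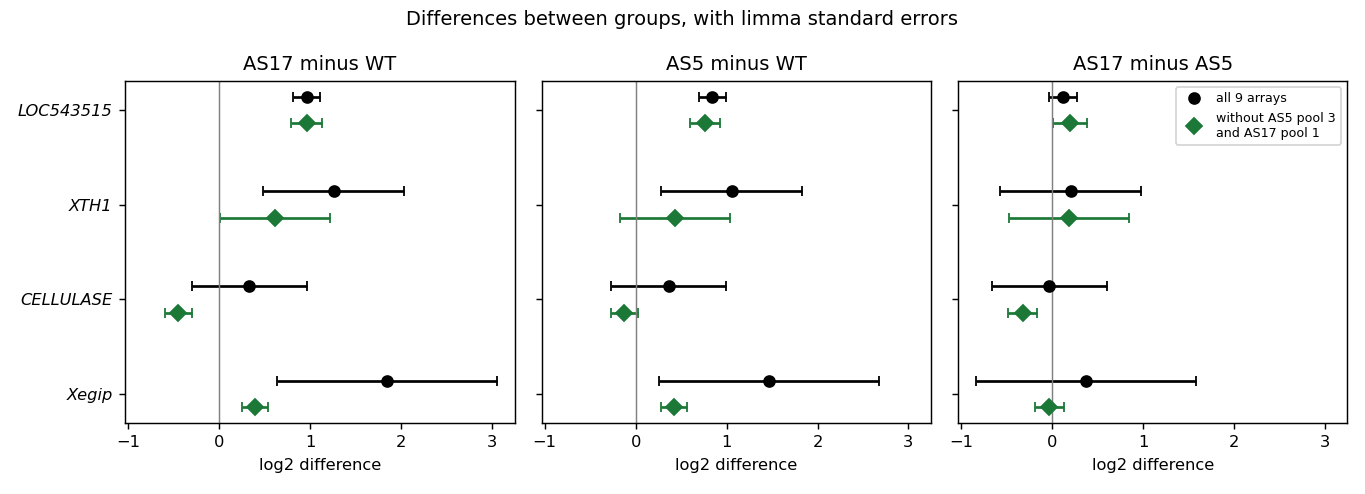
Log2 differences between groups for the 4 genes, with limma's standard errors, on all 9 arrays (black circles) and without AS17 pool 1 and AS5 pool 3 (green diamonds). LOC543515 keeps a difference from WT of 0.76 or more, the CELLULASE difference from WT turns negative, and the Xegip values include pools at background.

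The 2 silenced lines were compared with each other, a difference that does not use the WT levels, although the WT arrays enter its estimate of the spread. In limma, 0 of the 4 genes and 0% of all 10038 probe sets passed for AS17 minus AS5. There, 591 probe sets (5.89%) had an unadjusted p under 0.05. LOC543515 differed by 0.12 (95% confidence interval -0.22 to 0.46, limma adjusted p = 0.961), higher in AS17. XTH1 differed by 0.20 (-1.56 to 1.96, limma adjusted p = 0.994) and CELLULASE by -0.03 (-1.46 to 1.40, limma adjusted p = 0.997). Xegip differed by a measured 0.37 (-2.37 to 3.12, limma adjusted p = 0.993), with 2 of 3 pools of each line at background. The interval of LOC543515 thus bounds a difference between the lines to under 0.5 log2 units in either direction, whereas those of the other genes span more than 1 unit on both sides of 0. Each gene changed sign in this contrast when single pools were left out. LOC543515 ran from -0.04 to 0.21, XTH1 from -0.44 to 0.83, CELLULASE from -0.81 to 0.46 and Xegip from -1.08 to 1.42.

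The 4 genes were also set beside each other over the 9 arrays. The Pearson r across arrays was 0.94 between CELLULASE and Xegip, 0.85 between XTH1 and Xegip and 0.78 between XTH1 and CELLULASE (n = 9 arrays). Over the 7 arrays without AS17 pool 1 and AS5 pool 3 these values were -0.61, 0.57 and -0.05, so the first and the last rest on those 2 pools. LOC543515 correlated at 0.64 with XTH1, 0.54 with Xegip and 0.29 with CELLULASE over 9 arrays, and at 0.54, 0.89 and -0.61 over the 7. The arrays share the groups and the 2 pools, CELLULASE was at background in 3 of the 7 and Xegip in all 7, so these values describe the arrays alone.

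Of the 798 other named genes, the 3 whose levels followed those of each gene most closely were found by the same measure. For LOC543515 they were GS2 (r = 0.91), the expansin gene EXPA4 (0.88) and gad2 (0.88), whose synonyms include GAME11, a name from steroidal glycoalkaloid synthesis. Over 7 arrays without the 2 pools these were 0.93, 0.86 and 0.85, and as deviations from the group means they were 0.005, 0.54 and 0.64. The likeness to GS2, which was at or below background on all arrays, thus lay in the group means. EXPA4 had log2 levels of 8.43, 7.04 and 8.60 in AS17 pools 1, 2 and 3 and 6.77, 6.85 and 7.81 in AS5 pools 1, 2 and 3, against 4.996, 6.01 and 5.998 in WT pools 1, 2 and 3. Its silenced pools all lay above WT, as did those of 4.73% of all probe sets.

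For XTH1 the closest genes were LOC543718 (r = 0.941), LOC543961 (0.940), whose synonyms include SUS1, a sucrose synthase name, and the beta-galactosidase gene TBG6 (0.938). They kept r of 0.84, 0.82 and 0.85 over the 7 arrays. For CELLULASE they were the ethylene-response factor genes ERF3 (0.98) and PTI5 (0.94) and LOC543699 (0.94), at 0.79, -0.10 and 0.38 over the 7 arrays. For Xegip they were PTI5 (0.98), LOC543758 (0.95) and LOC543698 (0.94), at 0.58, 0.53 and 0.43. PTI5 stood at 5.56 in AS17 pool 1 and 5.34 in AS5 pool 3, against 1.37 to 2.16 in the other 7 arrays.

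**Figure D3:**
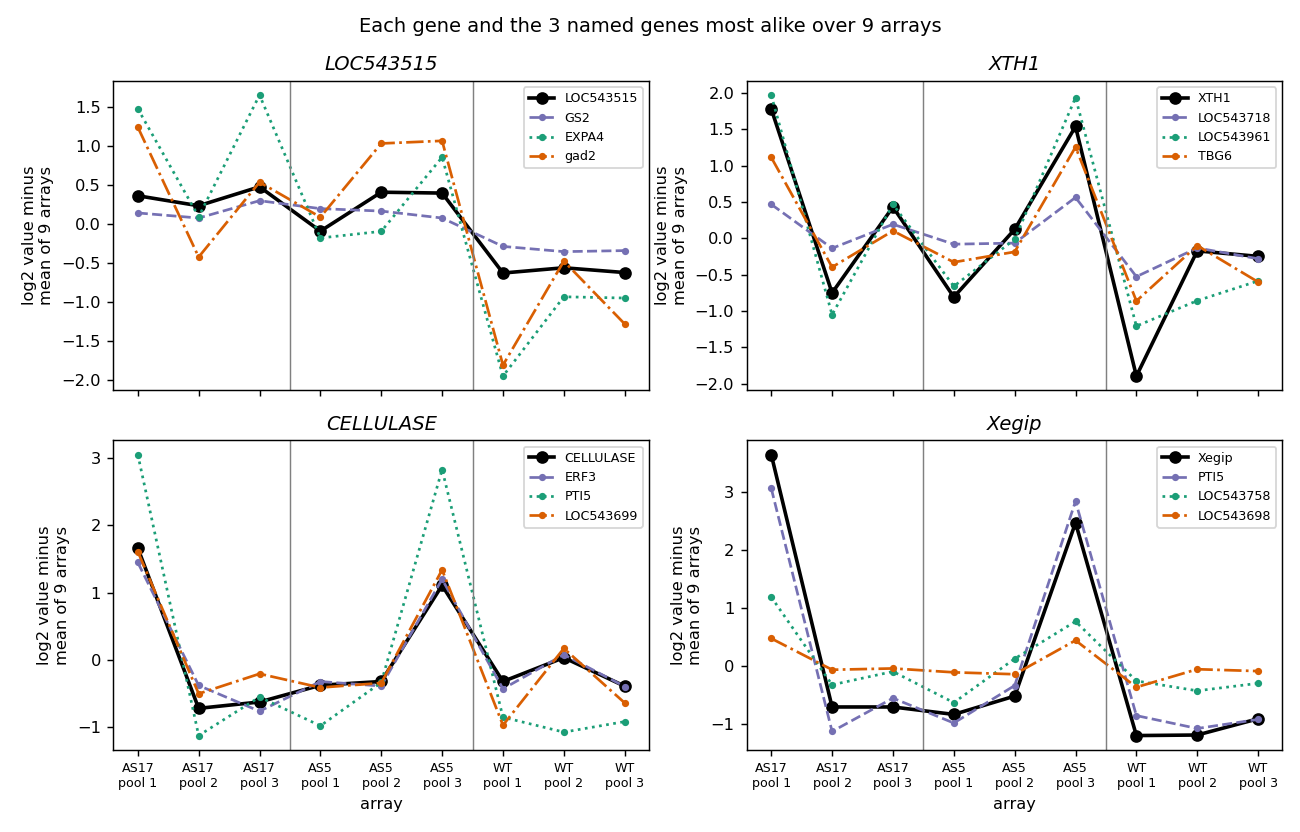
Log2 levels of each of the 4 genes (black) and of the 3 named genes with the highest Pearson r over 9 arrays, each minus its own mean. Vertical lines part AS17, AS5 and WT. The genes closest to LOC543515 are lowest in WT, and those closest to the other genes peak in AS17 pool 1 and AS5 pool 3.

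The other genes of hemicellulose and cellulose metabolism came from a list of 26 genes that includes the 4. For both lines averaged minus WT, 1 of the 26 was called higher, where 0.389% of all probe sets were, 0 lower, and 25 did not pass. The 1 was LOC543515, which was chosen for that difference, so of the genes not chosen 0 passed. The median difference was 0.09, against 0.004 over all probe sets, and 19 of 26 values were above 0. The 19 include the 4 genes, which were chosen with these differences in view. They also include all 5 genes at background on every array, so no direction is read from this count. In AS17 minus WT the counts were 1 higher and 0 lower, and in AS5 minus WT and AS17 minus AS5 they were 0 and 0. Of the 26, 14 were above background on all arrays and 5 on none. GluB, named as a glucanase of callose-type glucans, and ext1, a name used for extensins, are not known as hemicellulose or cellulose enzymes and matched the list by symbol alone.

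No family member of LOC543515 or XTH1 on the list passed in any of the 4 contrasts. XYL1 (synonym LEXYL1), the other beta-xylosidase gene, had log2 levels of 5.34, 7.33 and 6.56 in AS17 pools 1, 2 and 3 and 6.31, 7.52 and 6.28 in AS5 pools 1, 2 and 3, against 6.89, 7.45 and 6.27 in WT pools 1, 2 and 3. Its difference for the mean of both lines was -0.32 (SE 0.46, limma adjusted p = 0.801) and 0.06 without AS17 pool 1 and AS5 pool 3, with overlapping groups. LOC543517 (synonym LeARF1, an arabinofuranosidase) differed by 0.09 (SE 0.21), and by -0.05 without the 2 pools. The list held 8 other genes with an XTH or XET name. XET4, the widest of them in the upward direction, differed by 0.64 (SE 0.45) on all arrays and by 0.14 without AS17 pool 1 (4.86) and AS5 pool 3 (4.53), its 2 highest. LOC543916 (synonym XTH9), the widest of these 8 in the downward direction, differed by -0.83 (SE 0.57), and by -0.44 without the 2 pools. XTH5, the evenest of the 8 across WT pools among those above background, stood at 8.77 ± 0.40 in AS17 and 9.06 ± 0.37 in AS5, against 9.21 ± 0.06 in WT (SD, n = 3 each). BR1, on the list under a name without XTH or XET, fell further than LOC543916. It differed by -0.93 (SE 0.47, limma adjusted p = 0.391), and by -1.29 without the 2 pools, and was above background on 7 arrays.

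The endoglucanase genes that were above background on all arrays were Cel1, Cel2, Cel3 and CEL8. Cel2 had log2 levels of 7.94, 8.91 and 9.89 in AS17 pools 1, 2 and 3 and 7.86, 6.98 and 6.51 in AS5 pools 1, 2 and 3, against 7.29, 7.14 and 6.78 in WT pools 1, 2 and 3. All 3 AS17 pools lay above WT, while AS5 overlapped it, and the difference for the mean of both lines was 0.94 (SE 0.42, limma adjusted p = 0.323). In AS17 minus WT it was 1.84 (SE 0.48, limma adjusted p = 0.107) on all arrays and 2.33 (SE 0.36) without AS17 pool 1 and AS5 pool 3, where Cel2 passed (limma adjusted p = 0.0274) with 3.14% of all probe sets. CEL8 was highest in AS17 pool 1 (7.95) and AS5 pool 3 (7.80), like CELLULASE, and differed by 0.97 (SE 0.40, limma adjusted p = 0.296) on all arrays and by 0.60 without those 2. Cel3 stood at 8.31 ± 0.29 in AS17 and 8.24 ± 0.35 in AS5, against 8.65 ± 0.11 in WT (SD, n = 3 each). Its difference was -0.37 (SE 0.17, limma adjusted p = 0.345) on all arrays and -0.56 without AS17 pool 1 and AS5 pool 3, where it passed (limma adjusted p = 0.0416) with 2.07% of all probe sets. The mannanase gene Man4 differed by 1.39 (SE 0.70, limma adjusted p = 0.383) and was low in WT pool 2 (5.59, against 8.22 and 9.15 in WT pools 1 and 3).

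**Figure D4:**
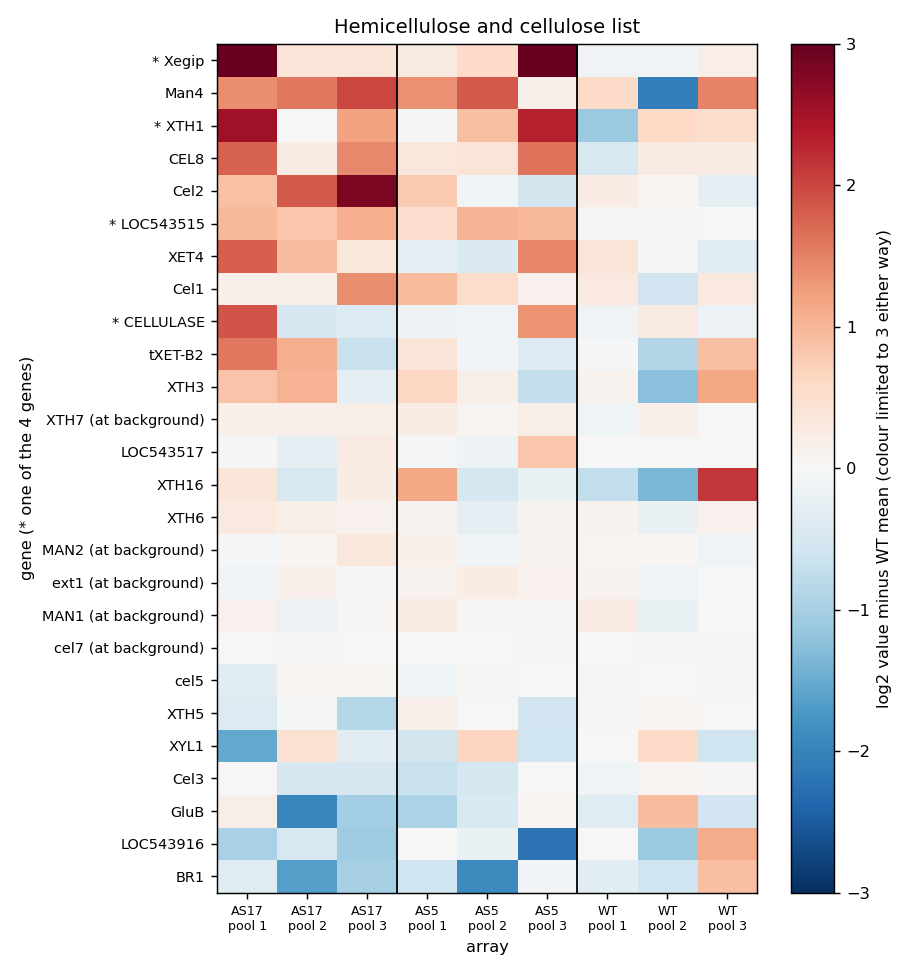
Log2 value of each of the 26 hemicellulose and cellulose genes in each pool minus that gene's WT mean, ordered by the difference for the mean of both lines, with the 4 genes marked by an asterisk. Colour is limited to 3 log2 units either way. The row of LOC543515 is evenly above the WT mean in all 6 silenced pools, and 5 rows (Xegip, XTH1, CEL8, XET4 and CELLULASE) are highest in AS17 pool 1 and AS5 pool 3.

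The same pair of pools held the 2 highest values of 5 of the 26 genes, namely Xegip, XTH1, CEL8, XET4 and CELLULASE. Only CEL8 and XET4 lie outside the 4 genes, which were chosen with earlier results of these arrays in view. Nothing is thus read from the 5 of 26. In the other wall lists the pair held the 2 highest values of 1 of 11 expansins (exp11), 1 of 9 pectin genes (PMEU1) and 2 of 7 beta-galactosidases (TBG6 and TBG7), against 11.3% of all probe sets. In these 3 lists 0 genes were called in the 4 contrasts by limma, and 7 of their 27 genes had an unadjusted p under 0.05 for the mean of both lines, as did 15.5% of all probe sets. Without AS17 pool 1 and AS5 pool 3, TBG7 passed for the mean of both lines at -0.66 (SE 0.11, limma adjusted p = 0.0384), against -0.23 (SE 0.38) on all arrays. Among expansins, which loosen bonds between wall polymers, EXPA4 differed by 1.91 (SE 0.41, limma adjusted p = 0.0688) and EXPA10 by 1.15 (SE 0.29, limma adjusted p = 0.112). All silenced pools lay above WT for both, as they did for 4.73% of all probe sets. EXPA10 was at background in WT pools 1 and 2 (1.30 and 1.19), so its difference is that of the deposited values and not an exact fold. EXPA3 differed by 0.79 (SE 0.31), and by 0.52 without AS17 pool 1 and AS5 pool 3. EXPA6 differed by -0.39 (SE 0.15) for the mean of both lines, but by -0.75 in AS5 and -0.03 in AS17 (SE 0.17 each). It was above background on 8 arrays.

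Among pectin genes, PMEU1, a pectin methylesterase, differed by 1.63 (SE 0.56, limma adjusted p = 0.214) on all arrays and by 1.16 without AS17 pool 1 and AS5 pool 3. PG2, the ripening polygalacturonase, stood at 12.17 ± 0.12 in AS17 and 12.11 ± 0.21 in AS5, against 12.00 ± 0.18 in WT (SD, n = 3 each). PE1 and PME2.1, both pectin methylesterases, differed by 0.37 (SE 0.18) and -0.28 (SE 0.22). Among beta-galactosidases, which trim galactose side chains, TBG5 differed by -0.51 (SE 0.10, limma adjusted p = 0.0527) and TBG2 by -0.67 (SE 0.16, limma adjusted p = 0.0948). All silenced pools lay below WT for both. The share of all probe sets with that order was not counted, and both genes were named for a small p, so nothing is read from it. TBG6 differed by 0.78 (SE 0.42), and by 0.32 without AS17 pool 1 and AS5 pool 3, and TBG1 by -0.32 (SE 0.14). The median differences were 0.19 for expansins, 0.05 for pectin genes and -0.32 for beta-galactosidases, against 0.004 over all probe sets. Without the 2 pools they were 0.17, 0.009 and -0.33, against 0.007.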

How the data were processed

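The deposited table holds the authors' log2 values, 1 for each probe set on each array, made with RMA (background correction, normalisation between arrays and probe summary) per the submitters' processing notes; its version and settings are not given in the labels used. The values ran from 0.26 to 12.9 and were used without further scaling. Per the labels' protocols, TRIzol RNA (100 ng input) was labelled with biotin. Of 10209 probe sets, 171 controls were left out, and 0 array columns went unused. The platform annotation gave 909 probe sets 1 symbol, 0 several and 9129 none; 885 of the 909 matched RefSeq (assembly SLM_r2.1), used for synonyms alone. No coordinates or sequences are given. A gene with several probe sets was represented by the 1 with the highest mean.

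Background was the 95th percentile of 63 reporter control probe sets per array. It lay between 1.57 and 1.98 in silenced arrays and between 1.41 and 1.56 in WT, so it is confounded with the silencing. Where a whole group was at background, "at least" is the brighter pool's value minus the dimmer group's mean of values raised to background. Group means of the brighter lines were set against that mean in the same way, but are not bounds.

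limma 3.58.1 (lmFit, eBayes; R 4.3.3) was fitted over 10038 probe sets with 1 mean per group on 9 arrays, with Benjamini-Hochberg adjustment within each contrast and a threshold of 0.05. The number of arrays limits the precision, and p-values set a difference against the spread between pools. The spread between independently made silenced lines is not covered. The code was tested on simulated data. The members, gene lists, tests and alternatives were chosen with earlier results of these data known. Named by rule were the 4 genes, list genes called in any contrast or else up to 4 others per list with the smallest p, and the 3 most alike genes per member; XYL1, LeARF1, XTH-type genes and others were named after their values were seen. Alternatives were a filter on dim probe sets (above background in 3 or more arrays), median centring, quantile normalisation, variance trend, weights per array, robust variances, the pool number as a block, fits on the arrays compared, and leaving out arrays. Figures used matplotlib 3.10.9 in Python 3.11.15.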

Additional observations from a re-analysis of the deposited data

How the results depend on the processing

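The log2 differences of the 4 genes from WT moved by less than each gene's residual SD between pools under every alternative run. That SD was 0.18 for LOC543515 but 1.15 for XTH1, 0.93 for CELLULASE and 1.79 for Xegip. It includes AS5 pool 3 and AS17 pool 1, so for those 3 genes it is a weak check. Without the 2 pools Xegip in AS17 went from 1.84 to 0.39 and XTH1 in AS5 from 1.06 to 0.43, and CELLULASE turned negative. With 1 array left out, the mean of both lines minus WT ranged from 0.86 to 0.99 for LOC543515, 0.60 to 1.47 for XTH1, -0.04 to 0.55 for CELLULASE and 0.93 to 2.02 for Xegip, which the filter on dim probe sets removed. In AS17 minus AS5 no gene passed under any alternative. There the sign turned with 1 array left out for all 4 genes, over -0.045 to 0.21 for LOC543515, -0.44 to 0.83 for XTH1, -0.81 to 0.46 for CELLULASE and -1.08 to 1.42 for Xegip. It also turned for CELLULASE with median centring (0.057) and quantile normalisation (0.045), and for Xegip without AS5 pool 3 and AS17 pool 1 (-0.030). The cause was not tested.

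Probe sets called for the mean of both lines numbered 128, against 27 to 110 with 1 array left out, 556 with array weights, 78 with the pool number as a replicate block and 208 without AS5 pool 3 and AS17 pool 1. In AS5 minus WT they numbered 38, against 18 to 38 with 1 array left out and 200 with array weights. In AS17 minus WT they numbered 135, against 20 to 140 with 1 array left out, 311 with array weights, 74 with the block, 47 in the fit on AS17 and WT arrays and 315 without both pools. Of the 4 genes, the number called ran from 0 to 1 with 1 array left out in each contrast against WT. It was 1 in AS5 minus WT with array weights, and 0 in AS17 minus WT with a variance trend and with the block. All arrays enter the mean of both lines, so it has no fit on fewer groups.

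The pool numbers were not taken as pairs, since deviations from the group means of same-numbered arrays correlated at -0.38 to 0.55 and the best match carried the same number in 3 of 18 cases. Background near 1.4 to 2.0 limits what can be said of CELLULASE and Xegip.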
